A study of Homo sapiens with 2 samples.

Results

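The 10 genes described here are the 5 globin genes of the alpha cluster (HBZ, HBM, HBA2, HBA1 and HBQ1), 4 genes beside it on chromosome 16 (NPRL3, LUC7L, MPG and POLR3K) and AHSP, the chaperone of alpha globin, which lies farther along the same chromosome. Of these, 9 were taken by symbol from the deposited comparison and joined by gene number to the deposited count tables. HBM was matched to the count tables by its RefSeq symbol and gene number. The count tables hold all 10, of 25702 genes in all, and 9 had counts. RNA was sequenced from K562, an established human erythroleukemia line (tissue labelled bone marrow) that carries the BCR-ABL1 fusion, grown as asynchronous cultures in RPMI with serum. One culture received 1 µM cabozantinib (XL184), which blocks kinases such as MET and the VEGF receptors, for 48 h, and a second received the solvent DMSO for 48 h. There was 1 library in each group. No difference given here therefore has a replicate check, the conditions could not be tested, and every interval covers counting error only.

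Hemoglobin is built from alpha-like and beta-like chains encoded in separate clusters. In the alpha cluster HBZ encodes the embryonic zeta chain, HBA2 and HBA1 encode the same adult alpha chain, and HBM and HBQ1 are related genes, mu and theta, whose place in hemoglobin is unclear. The cluster is surrounded by widely expressed genes, and its erythroid enhancers lie within introns of one of them, NPRL3. AHSP binds free alpha chains and keeps them from precipitating before they pair.

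The DMSO library held 25025243 counts and the cabozantinib library 25505289. Genes counted as measured at 1 CPM (counts for each 1000000 scaled counts) or more in at least 1 library, which left 12536 genes with a median log2 ratio of 0.01. Mitochondrial genes made up 4.12% of the DMSO counts and 4.90% of the cabozantinib counts. Marker calls follow the 1.5-fold rule given below, by which 8.15% of all measured genes were higher and 12.3% lower. All 11 erythroid markers were measured, and 9 of them were higher with cabozantinib. Their summed level was 7243 CPM in DMSO and 21690.3 CPM with cabozantinib. Most of it came from listed globins of the beta cluster, HBG1 (3110 and 9511 CPM) and HBE1 (2730 and 7792 CPM). Of 9 granulocyte and monocyte markers 3 were measured, all 3 lower, and the summed level was 59.1 and 18.6 CPM, with MPO and ELANE at 0 counts. Of 8 megakaryocyte markers 2 were measured, ITGA2B lower (log2 ratio -1.13) and ITGB3 higher (1.55, on 15 and 43 counts). Their list had a summed level of 14.6 and 8.07 CPM, with GP1BA, GP9, PF4 and VWF among those at 0. Of 6 lymphocyte markers 2 were measured, both lower (summed level 11.1 and 3.15 CPM; MS4A1 at 0). The part of these marker levels in the results below was not tested. In bulk RNA, more cells that express a gene and more of its RNA per cell cannot be told apart.

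With cabozantinib, 3 of the 5 alpha-cluster globins (HBZ, HBA2 and HBA1) and AHSP were higher by 3.62-fold to 7.34-fold, HBQ1 was within 1.5-fold, and HBM had no counts. Of the 4 neighbours LUC7L alone was past 1.5-fold, at 1.90-fold, and NPRL3, MPG and POLR3K stayed within it. A call of higher or lower needed a difference of at least 1.5-fold, a log2 size of 0.58, with no change outside the exact 95% (Clopper-Pearson) counting interval. On these terms 8.15% of all measured genes were higher and 12.3% lower. AHSP ranked 20, HBZ 30, HBA2 69 and HBA1 71 by log2 ratio among the 12536 measured genes.

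**Figure D1:**
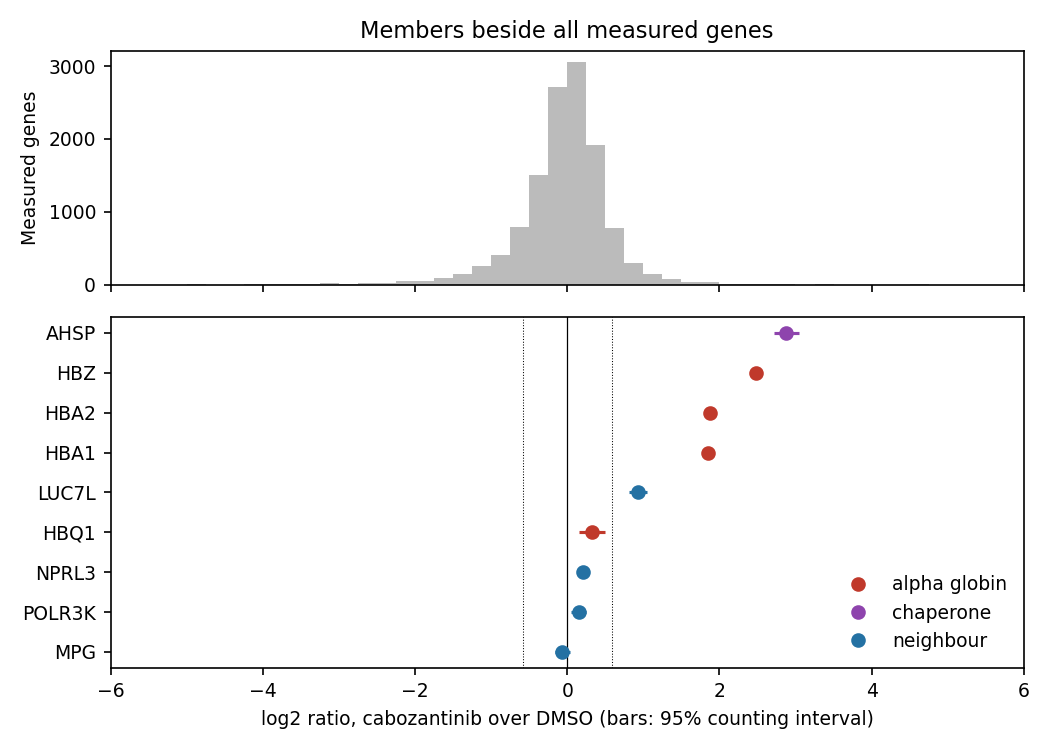
The upper panel counts all 12536 measured genes by log2 ratio, cabozantinib over DMSO, in bins of 0.25, and the lower panel gives the 9 measured members with bars for the 95% counting interval and dotted lines at 1.5-fold. AHSP, HBZ, HBA2 and HBA1 lie in the far upper tail, LUC7L lies past the line, and HBQ1, NPRL3, POLR3K and MPG lie among most other genes.

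HBZ (Entrez 3050, hg19 chromosome 16, 202854 to 204504, plus strand, 3 exons) encodes the zeta chain, the alpha-like chain of the early embryo. It had 17681 counts in DMSO and 95213 with cabozantinib, or 686 and 3844 CPM. It was therefore far higher in the cabozantinib library, by 5.60-fold (5.51 to 5.69), a log2 ratio of 2.49. HBA2 (Entrez 3040, 222846 to 223709) had 23265 and 81845 counts, or 903 and 3304 CPM, and was 3.66-fold higher (3.61 to 3.71). HBA1 (Entrez 3039, 226679 to 227520) had 16337 and 56839 counts, or 634 and 2295 CPM, and was 3.62-fold higher (3.56 to 3.68). Both adult genes have 3 exons and were higher by nearly the same factor. They are near-identical, and the handling of reads with several alignments was not given in the sources used here, which leaves their split uncertain. Their summed counts, 39602 and 138684, gave 3.64-fold (3.60 to 3.68). The ratio of HBA2 to HBA1 per kilobase of annotated exon was 1.36 in DMSO (1.33 to 1.38) and 1.37 with cabozantinib (1.36 to 1.39), and the change between libraries, 1.01-fold (0.988 to 1.03), was within counting error.

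HBQ1 (Entrez 3049, 230335 to 231178, 3 exons), the theta gene at the far end of the cluster, had 507 counts in DMSO and 610 with cabozantinib, or 19.7 and 24.6 CPM. It was slightly higher with cabozantinib, by 1.25-fold (1.11 to 1.41), and did not reach 1.5-fold. Relative to HBA1 plus HBA2 its log2 ratio was smaller by 1.54, with an interval of the difference of -1.71 to -1.37. HBM (Entrez 3042, 215973 to 216767, 3 exons), the mu gene between HBZ and HBA2, had 0 counts in both libraries. That allows up to 3 counts in each, or 0.116 CPM in DMSO and 0.121 CPM with cabozantinib, and no ratio can be given.

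AHSP (Entrez 51327, chromosome 16, 31539203 to 31540124, plus strand, 3 exons) had 343 counts in DMSO and 2424 with cabozantinib, or 13.3 and 97.9 CPM. It was 7.34-fold higher (6.56 to 8.26), the largest ratio of the 10 genes. The chaperone was thus higher by more than its client. Its log2 ratio exceeded that of HBA1 plus HBA2 by 1.01 (0.85 to 1.18) and that of HBZ by 0.39 (0.23 to 0.56). Per kilobase, AHSP stood at 0.0101 of the level of HBA1 plus HBA2 in DMSO and at 0.0205 with cabozantinib.

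Levels of different genes were compared within a library in TPM, counts per base of exon scaled to a sum of 1000000, computed from the counts and the annotated exon length. In DMSO the order was HBA2 (3131 TPM), HBZ (2444 TPM) and HBA1 (2309 TPM), with HBQ1 (63.4 TPM) and AHSP (55.2 TPM) far below. With cabozantinib HBZ was first (12141 TPM), ahead of HBA2 (10161 TPM) and HBA1 (7412 TPM). AHSP, at 360 TPM, had passed HBQ1 (70.4 TPM), NPRL3, MPG and POLR3K. It was above LUC7L already in DMSO, where LUC7L had 34.9 TPM. Among all genes HBZ went from rank 43 to rank 7, HBA2 from 27 to 9, HBA1 from 49 to 12 and AHSP from 3264 to 329. HBQ1 remained a low member of the cluster, at rank 2884 and 2375.

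**Figure D2:**
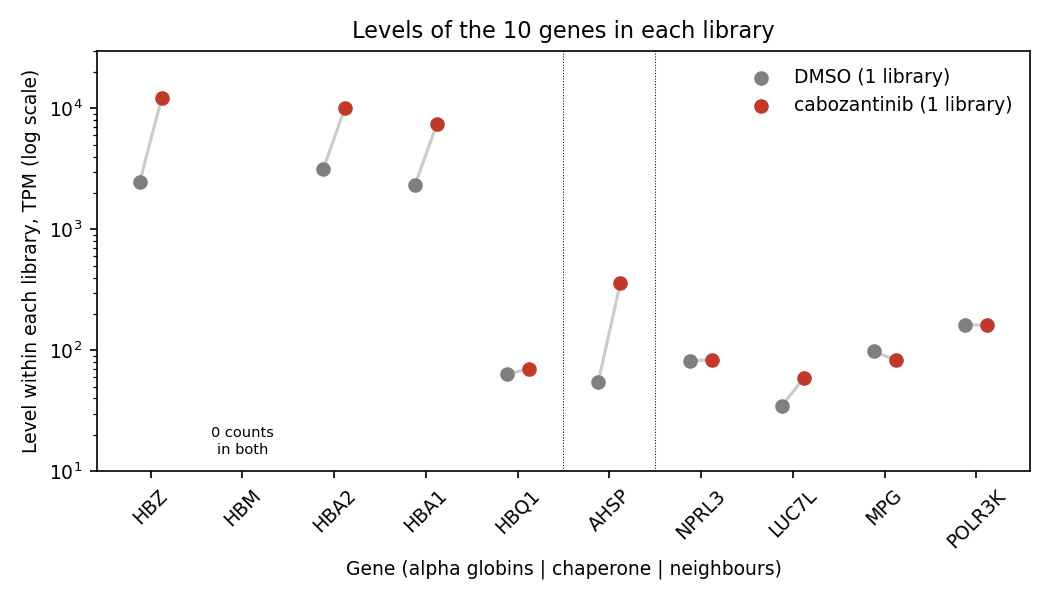
Levels of the 10 genes in TPM on a log axis, with 1 grey point for the DMSO library and 1 red point for the cabozantinib library per gene. HBZ, HBA2 and HBA1 stand at 2309 TPM or more in both libraries, AHSP crosses from 55.2 to 360 TPM, and the paired points of HBQ1, NPRL3 and POLR3K stand at nearly the same height.

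The make-up of the alpha-like RNA differed between the libraries. In DMSO HBZ was 30.6% of the alpha-cluster counts (30.2% to 31.0%), and with cabozantinib it was 40.6% (40.4% to 40.8%). HBA2 went from 40.3% to 34.9%, HBA1 from 28.3% to 24.2%, and HBQ1 from 0.877% to 0.260%. The log2 ratio of HBZ exceeded that of HBA1 plus HBA2 by 0.62 (0.59 to 0.65). The alpha cluster made up 0.231% of the DMSO counts (0.229% to 0.233%) and 0.919% of the cabozantinib counts (0.916% to 0.923%), a share 3.98 times as large.

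All 5 genes of the beta cluster were also higher, with log2 ratios of 1.51 for the embryonic HBE1, 1.16 for the fetal HBG2, 1.61 for the fetal HBG1, 2.17 for the minor adult HBD and 1.51 for the adult HBB, the last on 22 and 61 counts. HBG1 and HBG2 are near-identical, and their split is as uncertain as that of HBA1 and HBA2. In DMSO the alpha cluster had 0.194 counts for each count of the beta cluster (0.192 to 0.196), and with cabozantinib 0.315 (0.313 to 0.316). The ratio was 1.62 times as large (1.61 to 1.64), since alpha-like RNA was higher by 4.22-fold and beta-like RNA by 2.60-fold. Between the embryonic pair, HBZ to HBE1 went from 0.251 to 0.493 counts per count. Between the later pair, HBA1 plus HBA2 to HBG1 plus HBG2 went from 0.174 to 0.251. Beta-cluster counts remained the larger sum in both libraries.

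**Figure D3:**
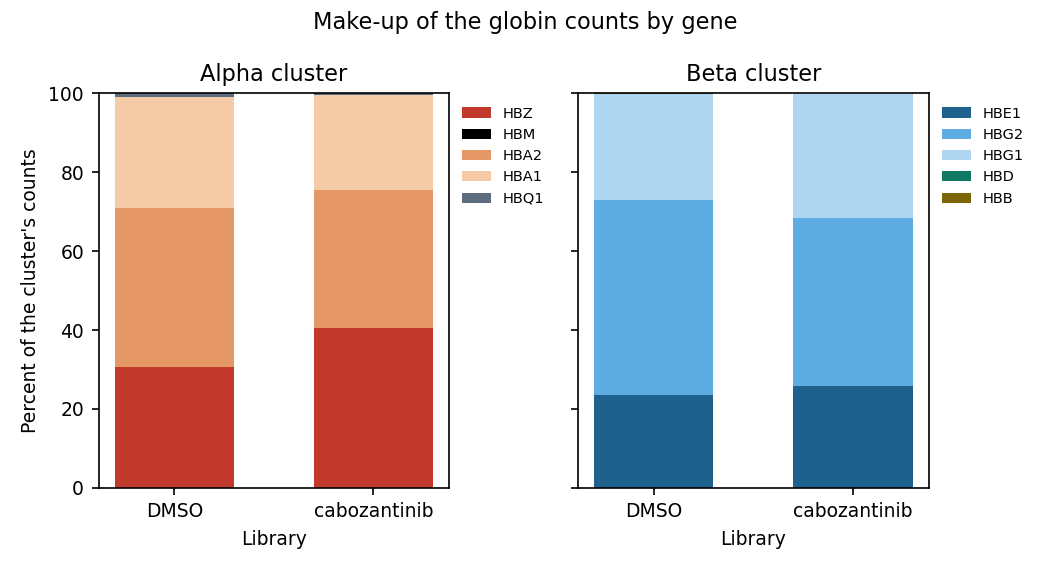
Stacked bars give the percent of counts of each gene within the alpha cluster (left) and the beta cluster (right) for the DMSO and the cabozantinib library. The HBZ part of the alpha cluster is 30.6% in DMSO and 40.6% with cabozantinib, while HBM, HBD and HBB are too small to see.

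Among the neighbours, NPRL3 (Entrez 8131, chromosome 16, 135800 to 188672, minus strand, 14 exons), a subunit of the GATOR1 complex that restrains mTORC1, had 3005 counts in DMSO and 3341 with cabozantinib, or 117 and 135 CPM. It was 1.16-fold higher (1.10 to 1.22), short of 1.5-fold. MPG (Entrez 4350, 127018 to 135845, plus strand, 6 exons), a DNA glycosylase that removes alkylated bases, had 1677 and 1542 counts, or 65.1 and 62.3 CPM, with a log2 ratio of -0.06 (-0.16 to 0.04). POLR3K (Entrez 51728, 96979 to 103632, minus strand, 3 exons), a subunit of RNA polymerase III, had 1653 and 1768 counts, or 64.2 and 71.4 CPM, with a log2 ratio of 0.15 (0.06 to 0.25). These 3 genes therefore stayed close to their DMSO levels. Exons of NPRL3 and MPG share 46 bases on opposite strands, and the strand setting of the counting was not given in the sources used here.

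LUC7L (Entrez 55692, 238970 to 279449, minus strand, 9 exons), a splicing factor related to a yeast protein of the U1 particle, had 892 counts in DMSO and 1631 with cabozantinib, or 34.6 and 65.8 CPM. It was the only one of the 4 neighbours called higher, by 1.90-fold (1.75 to 2.07). Its log2 ratio exceeded that of the other 3 neighbours together by 0.80 (0.67 to 0.93) and that of HBQ1 by 0.60 (0.39 to 0.81), although HBQ1 belongs to the globin cluster and LUC7L does not. At 2-fold, 0 of the 4 neighbours would be called, beside 2.71% of measured genes higher and 5.76% lower by that size. The median log2 ratio was 1.86 over the 4 measured alpha-cluster globins and 0.18 over the 4 neighbours, a difference of 1.68. HBZ stood above the summed neighbours by a log2 difference of 2.23 (2.18 to 2.28), HBA1 plus HBA2 by 1.61 (1.56 to 1.66) and AHSP by 2.62 (2.45 to 2.80).

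Promoters in the RefSeq table (GRCh38.p14, a later build than that of the counts) were matched for 5 of the 10 genes, HBM, NPRL3, LUC7L, MPG and POLR3K. HBZ, HBA2, HBA1, HBQ1 and AHSP were not matched. The 250 bases before the start are shown for 3 genes that behaved differently: HBM, which had no counts (chr16:165728-165977, plus strand), NPRL3, which stayed within 1.5-fold (chr16:138674-138923, minus strand), and the higher LUC7L (chr16:229450-229699, minus strand). They read 5′ to 3′ on the strand of the gene. Capitals mark matches, on either strand, to GATAA (the core bound by GATA factors), CACCC (a core bound by KLF factors), TATAA or CCAAT.
HBM: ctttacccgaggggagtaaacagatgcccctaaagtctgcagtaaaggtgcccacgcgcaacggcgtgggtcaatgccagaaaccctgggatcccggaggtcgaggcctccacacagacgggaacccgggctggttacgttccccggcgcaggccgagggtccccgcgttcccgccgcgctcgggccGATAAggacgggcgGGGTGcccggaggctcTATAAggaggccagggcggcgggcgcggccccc
NPRL3: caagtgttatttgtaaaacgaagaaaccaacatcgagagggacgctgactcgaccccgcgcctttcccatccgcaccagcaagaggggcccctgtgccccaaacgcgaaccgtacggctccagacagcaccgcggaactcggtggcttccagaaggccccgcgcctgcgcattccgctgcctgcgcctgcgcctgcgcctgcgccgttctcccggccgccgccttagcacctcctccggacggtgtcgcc
LUC7L: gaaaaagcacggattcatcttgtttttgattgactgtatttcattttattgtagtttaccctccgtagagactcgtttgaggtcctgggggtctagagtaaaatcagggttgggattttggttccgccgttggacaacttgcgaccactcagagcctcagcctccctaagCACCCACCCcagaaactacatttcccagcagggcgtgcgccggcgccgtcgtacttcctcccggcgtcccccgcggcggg
HBM had a GATAA that begins 63 bases before the start, a CACCC on the opposite strand at 49 and a TATAA at 33, and no counts in either library. LUC7L had a pair of CACCC matches at 80 and 76 bases that overlap by 1 base, and none of the other 3 motifs. NPRL3 had no match to any of the 4. MPG and POLR3K, whose windows are not shown, each had a CACCC among their matches, at 203 and 176 bases. Both genes stayed within 1.5-fold, and any link between matches and levels was not tested. Distances count from the RefSeq start, which can differ from the gene bounds given above. Of 35116 promoter windows of the same length, 20.4% hold GATAA, 54.7% CACCC, 18.9% TATAA and 32.0% CCAAT. These matches are a description of the letters only.

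Of 16 genes listed for the end of the short arm of chromosome 16, 14 were measured, 3 of them higher and 1 lower. Their median log2 ratio was 0.21. With so few genes, 1 lower and 3 higher of 14 cannot be told apart from 12.3% and 8.15% of all measured genes. The 3 were LUC7L, SNRNP25, a protein of the minor spliceosome (54.6 and 103.7 CPM, log2 ratio 0.92), and RHBDF1, an inactive rhomboid protein (10.1 and 20.1 CPM, 0.99). The lower one, DECR2, an enzyme of peroxisomal fatty acid breakdown, had 21.8 and 13.6 CPM, a log2 ratio of -0.68 (-0.88 to -0.48). Genes with close starts on opposite strands had unlike ratios. The starts of POLR3K and SNRNP25 lie 197 bases apart, and only SNRNP25 was called. MPG and RHBDF1 start 4.39 kb apart, and only RHBDF1 was called. LUC7L and FAM234A start 5.35 kb apart, and FAM234A had 96.5 and 68.6 CPM, a log2 ratio of -0.49 (-0.58 to -0.40), short of the rule.

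Of the other measured genes there, NME4, a nucleoside diphosphate kinase of mitochondria, had the largest ratio on over 100 CPM in both libraries, at 0.51. MRPL28 had a log2 ratio of 0.22, RAB11FIP3 one of 0.28, AXIN1, a scaffold of the beta-catenin destruction complex, one of 0.11, and TMEM8A one of 0.06. ARHGDIG, on 18 and 28 counts, had 0.68 with an interval of -0.21 to 1.64, which includes no change. WASIR2, a long non-coding RNA near the chromosome end that is on no list and was named after its values were seen, was lower, with 90 and 42 counts and a log2 ratio of -1.03 (-1.61 to -0.50). Along the arm the called genes were thus mixed with uncalled ones on both sides of the globin cluster.

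**Figure D4:**
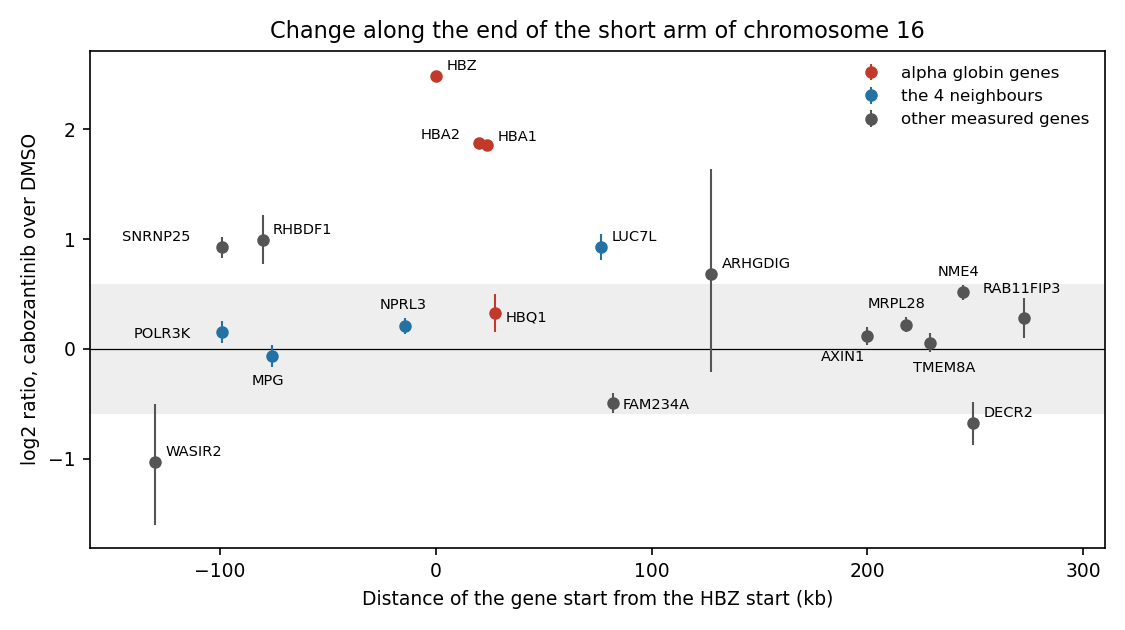
Each point is a measured gene placed by the distance of its start from the HBZ start in kb, with its log2 ratio (cabozantinib over DMSO), its 95% counting interval and a grey band for less than 1.5-fold. HBZ, HBA2 and HBA1 stand above 1.8, LUC7L, SNRNP25 and RHBDF1 lie near 0.9 to 1.0, and most other genes lie in the band.

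Around AHSP, 4 of 12 listed genes were measured, 0 higher and 1 lower, beside 8.15% and 12.3% of all measured genes. Their median log2 ratio was -0.46. The lower gene was PYCARD, the inflammasome adaptor ASC, with 116 and 23 counts and a log2 ratio of -2.25 (-2.99 to -1.62). C16orf58, the nearest of them, had 137 and 106 CPM, a log2 ratio of -0.37, and ARMC5 one of 0.30. None of the 4 was called higher. Among all annotated genes within 300 kb of the AHSP start, on the list or not, 6 others were measured. They include the already counted C16orf58, ARMC5 and ZNF720, but not PYCARD, which lies outside that distance. Of the 6, 1 was higher and 1 lower, with a median of -0.20. With so few genes, these counts cannot be told apart from the shares over all measured genes. The higher one, Entrez 100507110, has no symbol in the tables used here and had 51 and 93 counts, a log2 ratio of 0.92 (0.42 to 1.45). The lower one, the pseudogene YBX3P1, had 174 and 72 counts, a log2 ratio of -1.21. Both were named after their values were seen. The integrin genes ITGAM, ITGAX and ITGAD nearby had 20, 7 and 0 counts in DMSO and 4, 0 and 0 with cabozantinib.

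Of 15 listed factors that act on alpha-globin genes, their enhancers or AHSP, all were measured, 7 were higher and 0 lower, beside 8.15% and 12.3% of all measured genes. The median log2 ratio was 0.39, beside 0.01 over all measured genes. LMO2, the bridging protein of the GATA1 and TAL1 complex, went from 63.1 to 166.9 CPM, a log2 ratio of 1.40 (1.32 to 1.49). KLF1, the erythroid factor that binds CACCC boxes, went from 125 to 289 CPM, a log2 ratio of 1.21 (1.15 to 1.27). GATA1, with 227 and 298 CPM, had a log2 ratio of 0.39 (0.34 to 0.44) and was not called. TFCP2, which was first described as a factor binding the alpha-globin promoter, had -0.01, and the chromatin remodeller ATRX, whose loss lowers alpha globin, had 0.19. Of 9 genes of alpha-globin mRNA stability, translation and disposal 0 were higher and 1 was lower, a share near the 12.3% of all measured genes. Their median was 0.16. PCBP2, which binds alpha-globin mRNA, stood at 699 CPM in both libraries, and its relative PCBP1 had a log2 ratio of 0.34. PCBP4 was the lower one (6.21 and 3.75 CPM, -0.72). EIF2AK1, the heme-regulated kinase of eIF2, had 0.40, and UBE2O, a ligase that marks unpaired alpha chains for disposal, had 0.41, both under 1.5-fold.

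The neighbours were also set beside the partners of their products, where 8.15% higher, 12.3% lower and 78.5% within 1.5-fold are the shares over all measured genes. Of 11 genes of the GATOR and KICSTOR complexes, NPRL3 among them, 0 were higher and 0 lower, and the median was a log2 ratio of 0.12. The GATOR1 partners NPRL2 and DEPDC5 had 0.20 and -0.26. A list of 8 splicing genes held LUC7-like proteins, U1 proteins and SNRNP25, which belongs to the minor spliceosome. Of these, 3 were higher, LUC7L2 and the already counted 16p13 genes LUC7L and SNRNP25, and 0 lower, with a median of 0.36. LUC7L2, a relative of LUC7L on another chromosome, went from 180 to 313 CPM, a log2 ratio of 0.80 (0.74 to 0.85), while LUC7L3 had 0.39. Of 15 base excision repair genes 1 was higher, UNG, the uracil glycosylase (50.0 and 83.9 CPM, 0.75), and 0 lower, with a median of 0.11. The 14 genes of the RNA polymerase III list, POLR3K among them, had a median of 0.06, and its largest subunit, POLR3A, had 0.27.

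**Figure D5:**
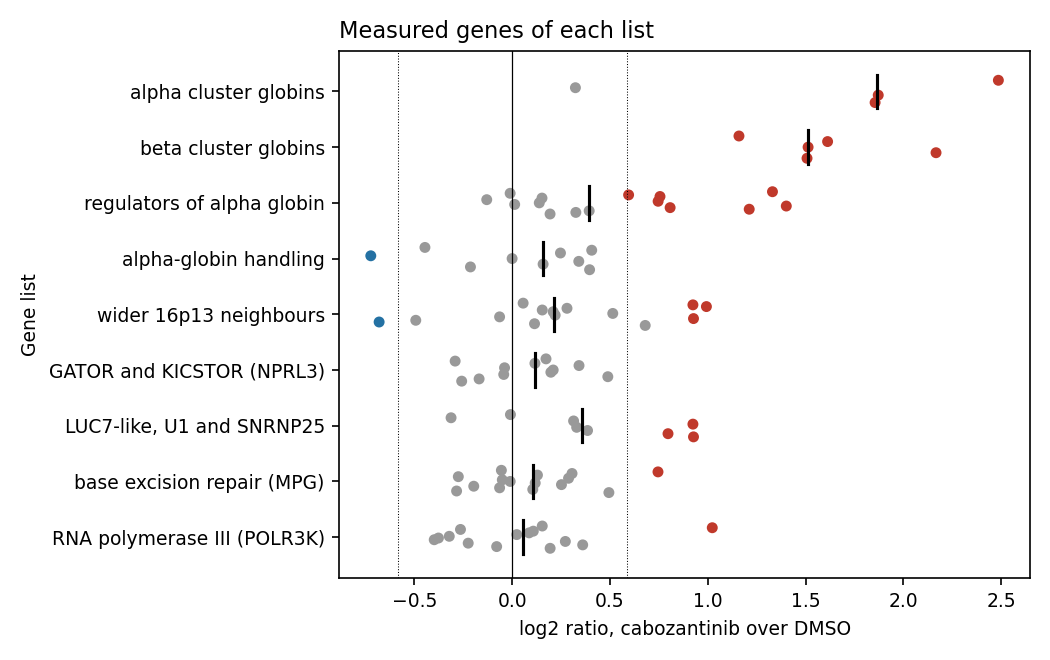
Each point is a measured gene of the list named at the left, by log2 ratio (cabozantinib over DMSO), with red for higher, blue for lower, grey for neither, a black bar for the median and dotted lines at 1.5-fold. The medians of the alpha and beta cluster globins are 1.86 and 1.51, and those of the other 7 lists lie between 0.06 and 0.39.

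Leaving out the 10 genes themselves, the protein-coding genes with the nearest log2 ratios, among 2414 with a mean of at least 100 CPM, were named as a description over 2 libraries. Nearest to HBZ were ALAS2 (2.54), the erythroid enzyme that starts heme synthesis, TFRC (2.31), the transferrin receptor, and FAXDC2 (1.98). Nearest to HBA1 plus HBA2 (1.87) were HSPA8 (1.85), COL18A1 (1.88) and SLC25A37 (1.94), the mitochondrial iron importer. Among these 2414 genes, the nearest to AHSP were again ALAS2, TFRC and FAXDC2, at larger distances of 0.34, 0.57 and 0.90 on the log2 scale. AHSP itself, at 13.3 and 97.9 CPM, lies under the level asked of these genes. Genes under that level can lie closer to it. The erythroid marker EPB42, left out for its level, had a log2 ratio of 2.99, beside 2.88 for AHSP.

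Posterior probabilities of differential expression in the authors' deposited table were 1 for HBZ, HBA2, HBA1 and AHSP. They rest on the same 2 libraries, 1 in each group, and so add no replicate check. In the authors' deposited table LUC7L had 0.946, just under 0.95, the level that 4.66% of the 17392 genes there reached. The values for HBQ1, NPRL3, MPG and POLR3K in the authors' deposited table were 0.0150, 0.0045, 0.0042 and 0.0048. Its plain fold ratios were 5.57 for HBZ, 3.64 for HBA2, 3.60 for HBA1, 7.31 for AHSP, 1.89 for LUC7L and 1.24 for HBQ1 in the authors' deposited table.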

How the data were processed

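RNA was sequenced from 2 K562 cultures, grouped by their treatment label. Libraries were strand-specific TruSeq libraries of total RNA, per the labels' protocols. Reads were aligned with Rsubread to hg19, per the file headers, and hg19 and GRCh37 are the builds in the submitters' processing notes. The authors deposited whole-number counts per Entrez gene in the layout of featureCounts, with exon positions and summed exon length. Its strand and multiple-alignment settings were not given in the sources used here. The authors also deposited fold ratios and a score between 0 and 1, a posterior probability of differential expression. Their direction was read from the labelled counts. That table's 4 columns of values per library name no sample and were not used.

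Counts were scaled with TMM factors (edgeR 4.0.16 in R 4.3.3; 1.03 for DMSO, 0.971 for cabozantinib). Log2 ratios used counts plus 0.5. Intervals are exact 95% (Clopper-Pearson) intervals. Those of a difference between genes combine the intervals of both genes. A gene with at most 3 counts in each library got no ratio. Shares used all counts of a library. At this depth 1 CPM corresponds to 25.8 counts in DMSO and 24.8 with cabozantinib. PCR reads are not independent molecules, so intervals and limits from a count of 0 cover counting error only. The scripts, in Python 3.11.15, were tested on simulated counts with counting error only, which cannot check differences between cultures. Alternatives covered scaling (DESeq2 1.42.0 size factors, upper quartile, total counts), pseudocount, filter, size threshold, length and the deposited fold.

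The 10 genes, the lists and the naming rule were chosen with earlier results of these data known. The rule named all members, the beta-cluster globins, GATA1, KLF1, measured genes of the 16p13 list, up to 2 called genes each way per list, and the nearest genes. Some listed genes are not reported here. Further genes are examples chosen after their values were seen.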

Additional observations from a re-analysis of the deposited data

How the results depend on the processing

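No paired analysis was possible because each group holds 1 library and the labels carry no replicate numbers. HBM gave no ratio under any setting. Under total counts every log2 ratio is lower by 0.08. HBZ was then 2.40, HBA2 1.79, HBA1 1.77, HBA1 plus HBA2 1.78 and NPRL3 0.13. With globins and mitochondrial genes left out of the totals, a scaling chosen after seeing the data, HBZ was 2.45, HBA2 1.84, HBA1 1.82 and HBA1 plus HBA2 1.83. The share of alpha-cluster globins was 3.75 times as large per kilobase, in place of 3.98. Of the 4 neighbours 0 passed 2-fold and 3 had an interval that excluded no change, in place of 1. Of the wider 16p13 genes 0 passed 2-fold and 11 had such an interval, in place of 4. The share of all measured genes with such an interval was not computed. Intervals are narrow at high counts, so the counts at any size say nothing particular about these genes. The other recomputed values moved by less than their counting interval or, for the counts of called genes, by less than 1.5 times, and no called ratio changed sign. Low counts left wide intervals for HBB and ARHGDIG. With 1 library a group, differences between cultures cannot be told apart from the treatment.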
